A study of Mus musculus with 6 samples.

Results

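The genes described here were the well-expressed long intergenic noncoding RNAs of mouse pancreatic islets. They were chosen by their level, as the rows of the authors' expression table with the biotype lincRNA and a mean of at least 2 FPKM over the 6 libraries. FPKM counts fragments per kilobase of gene length relative to the reads of the library, so levels can be set side by side between genes of different length. Meg3, Rian, Mirg, H19, Airn and Kcnq1ot1 were left out by name. The rule gave 166 of the 54532 rows. The table held 5559 lincRNA rows, of which 2148 were above 0 in at least 1 library and 168 reached the mean of 2 FPKM, and Meg3 and Mirg were the 2 of these that the rule excluded. Because the level chose the genes, levels are given as a description only. The mean was taken over both groups, so a gene could also enter through its level in 1 group alone. Of the 166 genes, 141 averaged at least 2 FPKM in both groups, 10 did so only in the libraries labelled Wtap-βKO, and 15 only in the Wtap flox/flox libraries. Among the 15 are the falls Gm34654, Gm17767, Gm33447 and Gm30606, and among the 10 are the rises Gm44717 and Gm27028. The shares given below were not worked out without such genes. The genes just inside the limit were Gm44036, 9430085M18Rik and Gm6225, with means of 2.002, 2.009 and 2.049 FPKM. Those just outside were 5930430L01Rik, Gm12474 and AC158605.1, with means of 1.97, 1.95 and 1.93 FPKM.

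Each of the 6 libraries was made from poly-A RNA of islets pooled from 3 mice aged 7 weeks, and each of 2 genotypes had 3 libraries. The mutant animals were labelled Wtap-βKO, a knockout of Wtap named for the insulin-producing β cell, and the controls were Wtap flox/flox, in which both Wtap copies carry recombination sites. The driver of the recombinase and the deleted exons are not given in the sources used here. The submitters called the 3 libraries of a group independent biological replicates.

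Long noncoding RNAs are transcripts longer than the small RNA classes that are not known to be translated. Some act in the nucleus, where Neat1 builds paraspeckles and Malat1 sits in nuclear speckles, and others act in the cytoplasm or only mark where transcription takes place. WTAP is the subunit that holds the m6A RNA methyltransferase in nuclear speckles, and noncoding RNAs such as Malat1 and Xist are known to carry this mark. The RNA was captured by its poly-A tail, which mature Malat1 and the long isoform of Neat1 lack, so their values may not be levels of the whole RNA pool.

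Wtap itself had 11.2, 11.9 and 12.3 FPKM in the libraries labelled Wtap-βKO, against 10.5, 11.4 and 11.6 FPKM in Wtap flox/flox libraries. The groups overlapped and did not pass the test (log2 fold change 0.07 ± 0.06, SE, limma adjusted p = 0.475), so the gene-level value did not tell the groups apart and the labels alone define them. Libraries held between 16353297 and 18682745 reads recovered from the FPKM values, and the median of the 166 genes had 94.5 to 105.5 reads in a library. The β-cell markers were high in every library, with 6 of 8 lower in those labelled Wtap-βKO, where they summed to 81188 to 91803 FPKM, against 133583 to 153510 FPKM in Wtap flox/flox. Of other cell types, 4 of 5 α-cell markers, 6 of 9 mesenchymal, 2 of 11 acinar, 2 of 8 endothelial, 1 of 3 δ- and PP-cell, 1 of 8 ductal and 1 of 8 macrophage markers were higher by the same test. Over all genes tested, 8.77% were higher and 11.3% lower, and over protein-coding genes at 2 FPKM or more 10.6% and 14.7%. A count of 1 of 8 is therefore not read as a shift of a cell type. Some of the marker counts changed when 1 library was left out. In such fits the calls over all genes changed too, to between 774 and 1379 rises and between 1020 and 1834 falls. With all libraries these were 1397 and 1798. With 1 library left out, 0 to 7 acinar markers were called, none of them without Wtap flox/flox replicate 1 or 2 and 7 without replicate 3. Among endothelial markers 1 was called without Wtap-βKO replicate 2 and none without any other library. Among δ- and PP-cell markers 2 were called without Wtap-βKO replicate 1, 1 without replicate 2 and none without any other library. The α-cell markers summed to 33740 to 44586 FPKM in the libraries labelled Wtap-βKO and 21207 to 25412 FPKM in Wtap flox/flox, and the mesenchymal markers to 94.5 to 108 FPKM in the libraries labelled Wtap-βKO and 63.2 to 73.7 FPKM in Wtap flox/flox. The acinar markers summed to 209.7 to 306.6 FPKM in the libraries labelled Wtap-βKO and 124.5 to 213.4 FPKM in Wtap flox/flox. None of 5 glial and neuronal markers passed the test, and of 3 lymphocyte markers Igkc was higher and Cd79a lower. No marker was at 0 in all 6 libraries. In bulk islets, fewer cells of a type and less RNA per cell cannot be told apart, and the part of these marker shifts in the results on noncoding RNAs was not tested.

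The label of intergenic noncoding RNA held for most but not all of the 166 genes when set against the annotations. By the coordinates and biotypes in the authors' table, 63 of the gene spans overlapped another gene and 20 overlapped a protein-coding gene. By the exons of GENCODE M21, exon bases were shared with another gene in 39. In 5 of them the shared part came to over 50% of exon bases. RefSeq held 110 of the 166 by symbol or older name, with 98 classed as long noncoding, 10 as protein-coding and 2 as pseudogenes. Of the 10, 7 matched by symbol, namely Dbpht2, Tmem250-ps, Gm39469, 1810058I24Rik, 6330403K07Rik, Gm6712 and Gm46430. The other 3, D930016D06Rik, 4930516B21Rik and Gm37494, are held there only as older names of Thoc2l, Acvr2b and Gm33989, whose spans overlap theirs, so the class is that of those genes. The libraries carried no strand mark, so where genes overlap, reads of the 2 strands cannot be told apart.

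Levels were uneven. Malat1 alone made up 19.7% of the summed FPKM of the 166 genes and the 10 highest made up 46.4%, while 99 genes averaged under 5 FPKM and the median gene had 3.97 FPKM. Most genes had no descriptive name, with 84 numbered Gm and 54 carrying a RIKEN name. The genes summed to 0.375%, 0.323% and 0.381% of all FPKM in the libraries labelled Wtap-βKO, and to 0.362%, 0.386% and 0.354% in Wtap flox/flox. The groups overlapped in this share. The typical distance of a gene's log2 value from the other two libraries of its group was 0.188, 0.208 and 0.180 in the libraries labelled Wtap-βKO and 0.134, 0.201 and 0.171 in Wtap flox/flox (medians over the 166 genes).

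Of the 166 genes, 43 differed between the groups at an adjusted p under 0.05 (limma over all 15927 genes tested, Benjamini-Hochberg), 31 of them lower and 12 higher in the libraries labelled Wtap-βKO. That is 25.9% of the genes, against 20.1% of all genes tested. Protein-coding genes of the same minimum level were called in 25.3% of cases, a share close to that of the 166 genes. Only the minimum level is alike in these 2 sets, and their standard errors and sizes of change differ, as given below. Falls came to 18.7% of the noncoding genes, against 11.3% of all genes tested and 14.7% of protein-coding genes of that level. Rises came to 7.23%, against 8.77% and 10.6%. The other 303 lincRNA rows tested had 7.92% falls and 2.97% rises. They are the tested rows under 2 FPKM together with Meg3, which fell, and Mirg, which rose. By level, 6 of 50 genes at 2 to 3 FPKM fell and 2 rose, 9 of 49 at 3 to 5 FPKM fell and 6 rose, and 7 of 42 at 5 to 10 FPKM fell and 2 rose. At 10 to 20 FPKM, 6 of 14 fell and none rose, and at 20 FPKM or more, 3 of 11 fell and 2 rose. These shares are descriptions, and no test of the set was made. The split between rises and falls moved with the scaling and the model. Scaled to total recovered reads, it was 16 rises and 29 falls among the 166 genes, and 2334 of all genes rose and 1094 fell. With limma voom on recovered reads, which also weights each value by its expected variance, it was 16 rises and 26 falls among the 166 genes and 3020 rises and 1317 falls among all genes, against 1397 rises and 1798 falls in the fit used here. That alternative raised the median log2 fold change of all genes by 0.114. Rescaled without the 50 highest genes, it was 14 rises and 31 falls among the 166 genes and 1676 rises and 1440 falls among all genes. No gene among the 43 was called in the opposite direction under any of 17 alternatives.

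Standard errors of the log2 fold changes had a median of 0.142 over the 166 genes. The median was 0.102 over all genes tested and 0.083 over protein-coding genes at 2 FPKM or more. The median log2 fold change of the 166 genes was -0.06, against -0.01 for all genes. An absolute log2 fold change of at least 1 was seen in 7.23% of the 166 genes. That share was 2.20% of all genes tested and 1.52% of protein-coding genes at 2 FPKM or more. Among the 7.23% are Gm34654, Gm17767, Gm33447, Gm44717 and Gm27028, which averaged at least 2 FPKM in 1 group only. The values of the 2 groups did not overlap in 56 genes (33.7%, against 41.3% of all genes tested). Of these, 40 were lower (24.1%, against 22.1% of all genes tested) and 16 higher (9.64%, against 19.1%). The 56 held all 43 called genes and 13 others. The 31 genes that fell summed to 172, 181 and 190 FPKM in the libraries labelled Wtap-βKO, against 391, 421 and 388 FPKM in Wtap flox/flox. The 12 that rose summed to 133, 132 and 134 FPKM, against 71.2, 71.6 and 70.8 FPKM. Both sums follow from the calls and are given only to show the amount of RNA concerned.

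**Figure D1:**
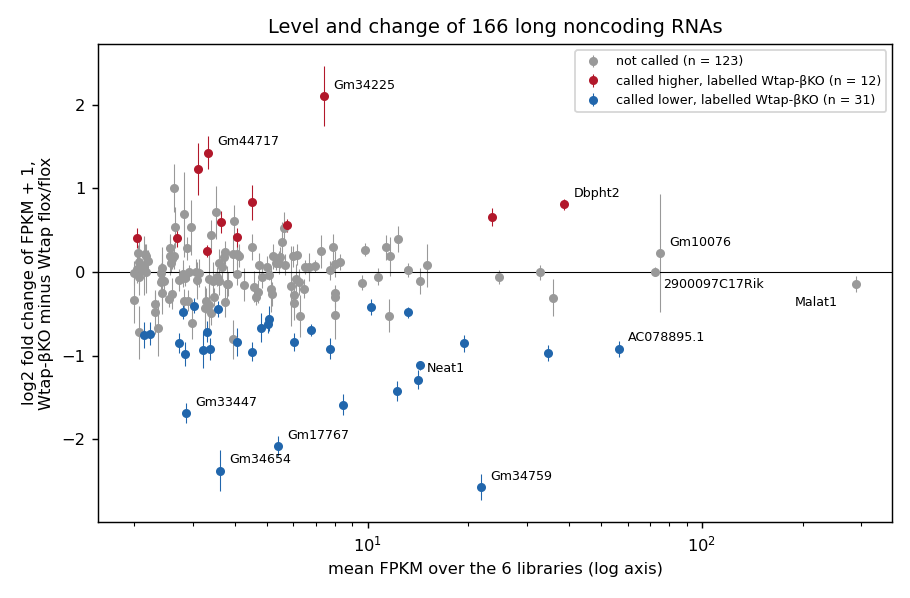
Each point is 1 of the 166 genes, with its mean FPKM over the 6 libraries on a log axis and its log2 fold change of FPKM + 1 (libraries labelled Wtap-βKO minus Wtap flox/flox), and bars are the limma standard error. The 31 falls reach -2.57 (Gm34759), the 12 rises reach 2.10 (Gm34225), and Malat1, the most abundant, lies at -0.14 without passing the test.

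Among the genes with a described nuclear role, Neat1 fell. Neat1 (chr19:5824708-5845478, minus strand, GRCm38, a single exon block in GENCODE M21) is the scaffold of paraspeckles, nuclear bodies that hold RNA-binding proteins and some RNAs. It had 7.79, 7.61 and 7.91 FPKM in the libraries labelled Wtap-βKO, against 18.5, 24.4 and 18.6 FPKM in Wtap flox/flox. All 3 libraries labelled Wtap-βKO lay below all 3 controls and close to each other. The means were 7.77 ± 0.15 and 20.5 ± 3.4 FPKM (SD, n = 3 each), 2.64-fold lower, and the log2 fold change was -1.28 ± 0.11 (SE, limma adjusted p = 0.00079). The value rests on 2831 to 3050 reads and 6717 to 8019 reads per library, and its call held under all 17 alternatives. Annotated small RNA rows share 1.85% of its exon bases, and the nearest protein-coding gene, Frmd8, did not pass the test (4224 bases away, log2 fold change 0.00049, adjusted p = 0.998).

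Malat1 (chr19:5795690-5802672, minus strand), which lies beside Neat1 and is a nuclear speckle RNA, did not pass the test. It had 301, 240 and 286 FPKM in the libraries labelled Wtap-βKO and 301, 325 and 285 FPKM in Wtap flox/flox. The groups overlapped, with the lowest value in Wtap-βKO replicate 2, and the log2 fold change was -0.14 ± 0.10 (SE, adjusted p = 0.354). Norad, listed as 2900097C17Rik, binds Pumilio proteins in the cytoplasm and had nearly equal group means. It stood at 73.1, 74.2 and 69.7 FPKM, against 73.7, 68.9 and 73.7 FPKM, and its log2 fold change was 0.0045 ± 0.05 (SE, adjusted p = 0.964). Cyrano, listed as 1700020I14Rik and known for directing decay of the microRNA miR-7, had 12.2, 9.01 and 10.6 FPKM, against 10.7, 11.3 and 10.8 FPKM (log2 fold change -0.05 ± 0.10, adjusted p = 0.751).

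Ftx, an activator of Xist in the X-inactivation centre, had 4.23, 3.55 and 4.41 FPKM in the libraries labelled Wtap-βKO, against 5.27, 5.55 and 4.87 FPKM in Wtap flox/flox. The groups did not overlap, but the difference missed the threshold (log2 fold change -0.30 ± 0.09, SE, adjusted p = 0.0576) and passed only when every gene was required to average 2 FPKM (adjusted p = 0.0452, with a range of 0.0452 to 0.166 over 17 alternatives). Xist itself was between 0.0157 and 0.0420 FPKM in the 6 libraries and was not among the 166. The Y-linked genes Ddx3y, Eif2s3y, Kdm5d and Uty summed to 30.5 to 30.7 FPKM in the libraries labelled Wtap-βKO and 39.6 to 41.3 FPKM in Wtap flox/flox, with 3 of 4 lower. Of the 8 nuclear or long-range noncoding RNAs tested from a chosen list, 5 were among the 166 genes. In that list 1 fell (Neat1) and none rose, beside 11.3% falls and 8.77% rises over all genes tested. Its median log2 fold change was -0.13, against -0.01 for all genes.

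Of a chosen list of hosts of small nucleolar RNAs and microRNAs, 17 were tested, and 1 rose and none fell. Over all genes tested, 8.77% rose and 11.3% fell. Host genes carry small RNAs in their introns or exons. Among the 17, 5 belonged to the 166 genes and none of these passed the test. The list does not hold every host among the 166 genes. Outside it, Snhg10 and Mir670hg did not pass (log2 fold changes -0.14 and 0.06, limma adjusted p = 0.676 and 0.842), and Gm27028, whose span holds a microRNA gene, rose as described with the rises. Snhg20 had 11.3, 14.9 and 11.7 FPKM in the libraries labelled Wtap-βKO and 9.45, 12.3 and 8.63 FPKM in Wtap flox/flox, and the groups overlapped (log2 fold change 0.30 ± 0.15, SE, limma adjusted p = 0.203). It passed with limma voom on recovered reads (adjusted p = 0.0282) and with the replicate number as a block (adjusted p = 0.0414), within a range of 0.0282 to 0.445 over 17 alternatives. Epb41l4aos, Snhg6, Snhg12 and Snhg18 had log2 fold changes of 0.19, 0.07, 0.09 and -0.40 with adjusted p from 0.359 to 0.705. The host that rose, Gas5, is annotated as a processed transcript and so lies outside the 166. It had 13.97, 18.48 and 17.94 FPKM, against 12.29, 12.88 and 10.02 FPKM (adjusted p = 0.0416). That call was lost in 8 of 17 alternatives, among them the fits without Wtap-βKO replicate 2 or 3 or without any 1 of the Wtap flox/flox libraries (highest adjusted p 0.121).

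Of the noncoding RNAs described in islets, p53 signalling or metabolism, 6 were tested and the 4 among the 166 genes did not pass. Of all genes tested, 20.1% were called. Paupar, transcribed upstream of the islet factor gene Pax6 on the opposite strand, had 5.45, 6.16 and 3.71 FPKM in the libraries labelled Wtap-βKO, against 4.15, 3.96 and 3.55 FPKM in Wtap flox/flox. Its groups overlapped through Wtap-βKO replicate 3 (log2 fold change 0.30 ± 0.16, SE, adjusted p = 0.215), and it passed without that library (log2 fold change 0.48, adjusted p = 0.033, with a range of 0.033 to 0.442 over 17 alternatives). Gm10451, 1810058I24Rik and Bvht had log2 fold changes of -0.34, 0.06 and 0.12 and overlapping groups. Bvht is a cardiac noncoding RNA and 1810058I24Rik is protein-coding in RefSeq. Peg13, an imprinted sense-intronic RNA outside the 166 genes, was the 1 call, a fall to 25.9 FPKM in the libraries labelled Wtap-βKO, against 35.9 FPKM in Wtap flox/flox (adjusted p = 0.0179). It was lost without Wtap-βKO replicate 1 or 3 or without any 1 of the Wtap flox/flox libraries (highest adjusted p 0.0644).

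**Figure D2:**
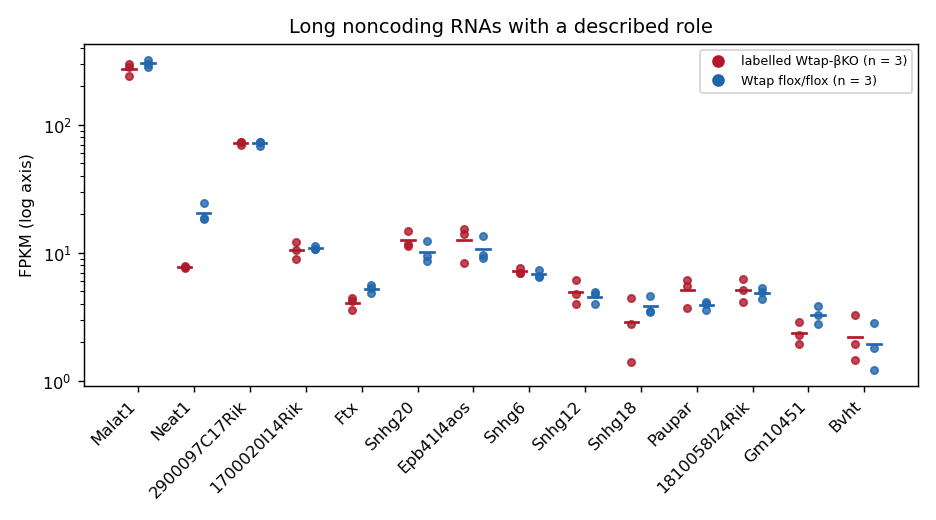
FPKM in each library on a log axis for 14 of the 166 genes that the chosen lists name, with the libraries labelled Wtap-βKO on the left and Wtap flox/flox on the right of each pair, and lines at the means of 3. Neat1 is the gene whose groups stand apart and which passed the test, and Malat1 and 2900097C17Rik (Norad) have overlapping groups.

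Proteins that work with these RNAs were looked at by list, without a test of the counts. For comparison, 20.1% of all genes tested and 25.3% of protein-coding genes at 2 FPKM or more were called. Of 14 paraspeckle proteins, 1 passed the test, the chromatin remodeller Smarca4, at 26.8, 23.8 and 29.3 FPKM in the libraries labelled Wtap-βKO, against 32.7, 33.2 and 33.8 FPKM in Wtap flox/flox (log2 fold change -0.31 ± 0.08, SE, limma adjusted p = 0.0339). The RNA-binding core proteins Nono, Sfpq and Pspc1 had log2 fold changes of -0.07, 0.13 and -0.10 and did not pass, although Sfpq did with quantile normalization, scaled to total reads and with voom (adjusted p 0.0491, 0.0326 and 0.0154, with a range of 0.0154 to 0.378 over 17 alternatives). Of 21 subunits and adaptors of the nuclear exosome, which degrades nuclear RNA, 1 passed, Srrt (log2 fold change -0.20 ± 0.05, SE, adjusted p = 0.0402). The Smarca4 and Srrt calls were lost in 10 and 11 of 17 alternatives, quantile normalization, both rescalings and voom among them. Of 11 proteins of Xist silencing, 2 passed. Rbm15, which also recruits the m6A writer to RNA, rose to 9.16, 7.42 and 8.53 FPKM, against 5.04, 5.07 and 4.92 FPKM (log2 fold change 0.64 ± 0.08, SE, adjusted p = 0.00347). Lbr, the lamin B receptor, fell to 5.90, 6.22 and 6.32 FPKM, against 8.58, 9.73 and 7.78 FPKM (adjusted p = 0.0147). The Rbm15 call held under all 17 alternatives, and the Lbr call was lost in 1.

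The largest falls, ordered on the log2(FPKM + 1) scale, were in unnamed genes. Gm34759 (chr15:12068248-12085197, minus strand, 6 exon blocks) had 4.64, 7.26 and 5.01 FPKM in the libraries labelled Wtap-βKO, against 34.1, 43.3 and 36.8 FPKM in Wtap flox/flox. The groups were far apart, at means of 5.64 ± 1.41 and 38.1 ± 4.71 FPKM (SD, n = 3 each), 6.75-fold lower. Its log2 fold change of -2.57 ± 0.16 (SE, limma adjusted p = 0.000293) was the lowest of the 166 genes on that scale, although the ratio of means was larger for Gm34654. The nearest protein-coding gene, Zfr, a zinc finger RNA-binding protein gene on the other strand, starts 32634 bases away and was also lower, by much less (log2 fold change -0.25, adjusted p = 0.0259).

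Gm34654 (chr9:77807036-77809793, minus strand) was the lowest of the falls in the libraries labelled Wtap-βKO. It had 0.0991, 0.522 and 0.867 FPKM there, which are 1, 5 and 8 reads, against 5.12, 8.99 and 6.09 FPKM in Wtap flox/flox, which are 48, 76 and 58 reads. The groups did not overlap, and the mean was 13.6-fold lower (log2 fold change -2.37 ± 0.24, SE, limma adjusted p = 0.00151). The fold was 21.7 without Wtap-βKO replicate 3 and 9.70 without replicate 1. Its neighbour Gclc, which encodes the catalytic subunit of glutamate-cysteine ligase, lies 12551 bases away and had a log2 fold change of 0.07 (adjusted p = 0.542).

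Gm17767 and Gm33447 followed. Gm17767 (chr1:51507086-51596718, minus strand) had 1.12, 1.43 and 1.84 FPKM in the libraries labelled Wtap-βKO, against 9.37, 8.81 and 9.80 FPKM in Wtap flox/flox. No library overlapped the other group, and the mean was 6.38-fold lower (log2 fold change -2.08 ± 0.11, SE, limma adjusted p = 0.000198). Gm33447 on chromosome 13 had 1.13, 0.597 and 0.806 FPKM, against 4.88, 4.74 and 5.05 FPKM, and was 5.78-fold lower (log2 fold change -1.68 ± 0.12, SE, adjusted p = 0.000441). It rests on 10 to 20 reads and 70 to 84 reads per library.

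Start regions could be shown for some of the genes. RefSeq (GRCm38.p6) held a promoter window of 300 bases, 250 before and 50 after the start, for 87 of the 166 genes by symbol. In 68 the window's start lay within 300 bases of the start in the authors' table, 13 of them in genes that fell and 3 in genes that rose. The windows below are those of the 2 large falls just described and of Gm17586, a smaller fall that shares its start region with Mafg. They lie at chr1:51596669-51596968 (minus strand), chr13:97375930-97376229 and chr11:120633500-120633799 (plus strand), and are read 5′ to 3′. Capitals mark CACGTG in Gm17586.
Gm17767: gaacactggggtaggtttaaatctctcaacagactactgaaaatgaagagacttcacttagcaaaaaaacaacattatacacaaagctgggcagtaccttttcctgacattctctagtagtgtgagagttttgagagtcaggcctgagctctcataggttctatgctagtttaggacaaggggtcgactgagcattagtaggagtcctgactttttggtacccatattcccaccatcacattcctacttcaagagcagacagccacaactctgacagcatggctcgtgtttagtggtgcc
Gm33447: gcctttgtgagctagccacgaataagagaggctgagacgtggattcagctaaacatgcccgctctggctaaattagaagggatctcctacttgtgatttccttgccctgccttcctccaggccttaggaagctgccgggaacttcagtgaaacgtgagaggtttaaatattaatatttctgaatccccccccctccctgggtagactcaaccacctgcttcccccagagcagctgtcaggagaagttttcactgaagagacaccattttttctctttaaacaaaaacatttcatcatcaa
Gm17586: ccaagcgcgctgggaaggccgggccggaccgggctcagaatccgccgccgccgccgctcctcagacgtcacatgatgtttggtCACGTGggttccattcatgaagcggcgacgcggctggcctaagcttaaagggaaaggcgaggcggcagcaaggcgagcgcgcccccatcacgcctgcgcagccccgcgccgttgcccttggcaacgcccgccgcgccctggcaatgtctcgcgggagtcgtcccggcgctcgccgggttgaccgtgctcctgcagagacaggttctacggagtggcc
The windows were searched on both strands for the TATA box (TATAAA), the CCAAT box, the GC box (GGGCGG), the cAMP response element (TGACGTCA), the E-box (CACGTG) and the Maf core (TGCTGAC), with matches of GGGCGG to each other allowed to overlap. Those of Gm17767 and Gm33447 held none of the 6, and that of Gm17586 held CACGTG once in 69.7% G and C. CACGTG was in 4 of the 13 windows of genes that fell, in none of the 3 of genes that rose, in 3 of 52 of genes that did not pass, and in 7.15% of all 32851 windows. TATAAA was in none of the 13, against 13.6% of all windows, and GGGCGG in 3 of 13, against 35.7%. These matches describe letters in a window only.

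**Figure D3:**
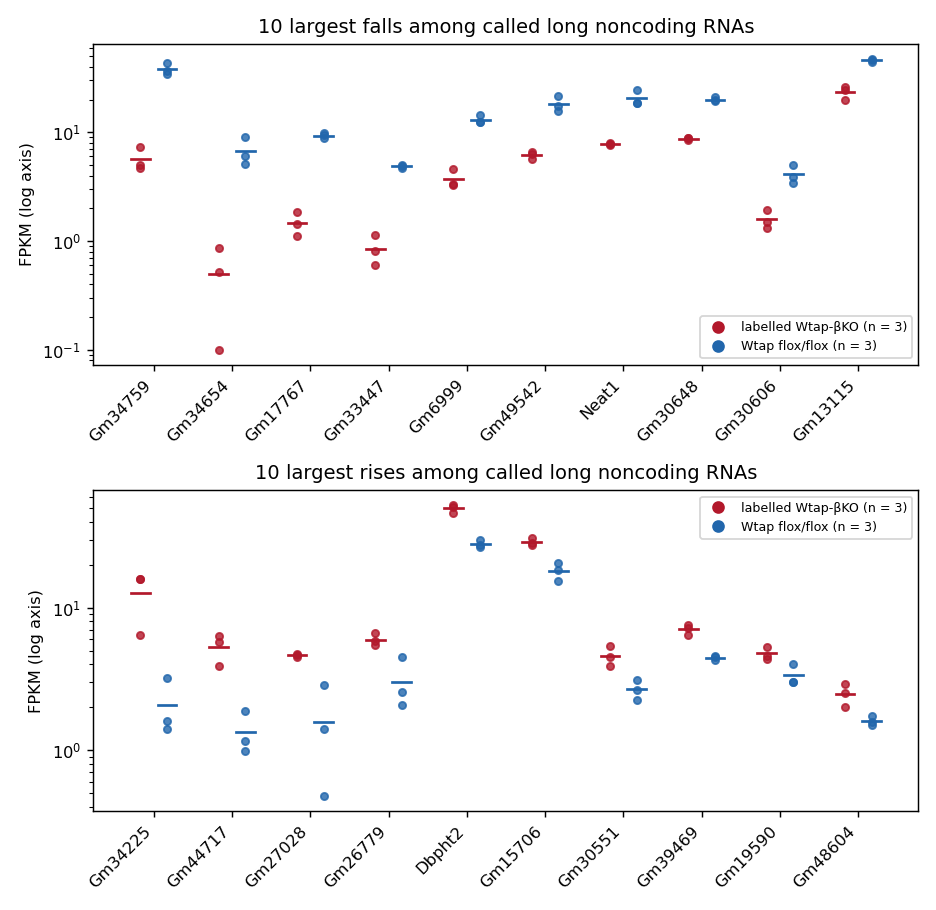
FPKM per library on a log axis for the 10 largest falls (top) and the 10 largest rises (bottom) among the genes that passed the test, with the libraries labelled Wtap-βKO left of Wtap flox/flox and lines at the means of 3. No pair of groups overlaps. Among the falls, the mean in Wtap flox/flox is lowest in Gm30606, followed by Gm33447 (4.89 FPKM), and highest in Gm13115 (46.2 FPKM).

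A run of genes upstream of Olfm4 on chromosome 14 fell together with it. Olfm4 encodes olfactomedin 4, a secreted glycoprotein. Gm6999 (chr14:79836712-80006326, plus strand, 14 exon blocks) starts 147369 bases before Olfm4 and runs into it, sharing 3.46% of its exon bases. It had 4.59, 3.36 and 3.25 FPKM in the libraries labelled Wtap-βKO, against 12.5, 14.4 and 12.4 FPKM in Wtap flox/flox (log2 fold change -1.58 ± 0.12, SE, limma adjusted p = 0.000551). Gm49542 (chr14:79898467-79907230, plus strand), which lies inside the span of Gm6999, had 6.36, 5.62 and 6.53 FPKM, against 17.4, 21.7 and 15.7 FPKM (log2 fold change -1.42 ± 0.12, SE, adjusted p = 0.000784). Olfm4 had 11.03, 11.22 and 9.63 FPKM, against 24.95, 31.61 and 22.62 FPKM (log2 fold change -1.23 ± 0.12, SE, adjusted p = 0.00146). The processed pseudogene Gm18605 between them was lower too (log2 fold change -1.17 ± 0.14, SE, adjusted p = 0.00274). In each of the 4 genes the groups stood apart. All 4 lie on the plus strand, so their reads cannot be told apart by strand, and exons of Gm6999 are the shared part.

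**Figure D4:**
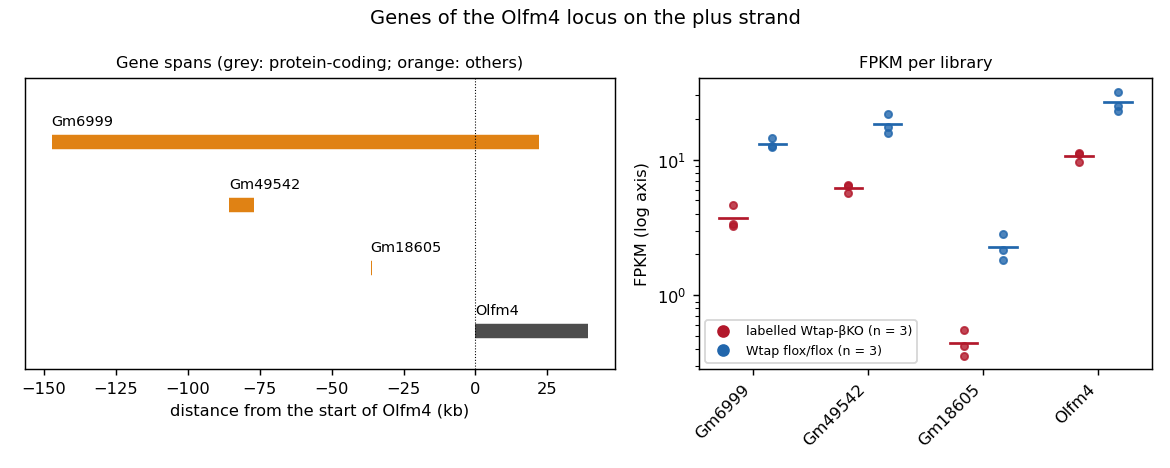
Left, the spans of 4 plus-strand genes by distance in kb from the start of Olfm4, which is protein-coding (grey), with Gm6999, Gm49542 and the pseudogene Gm18605 in orange. Right, their FPKM per library on a log axis, libraries labelled Wtap-βKO left of Wtap flox/flox, with log2 fold changes between -1.58 and -1.17 and no overlap of the groups.

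Of the other named falls, Gm30648 (chr3:134199948-134213238, plus strand) was even within its groups. It had 8.41, 8.85 and 8.77 FPKM in the libraries labelled Wtap-βKO, against 19.7, 19.3 and 20.9 FPKM in Wtap flox/flox (log2 fold change -1.12 ± 0.06, SE, limma adjusted p = 0.000148). Its neighbour Cxxc4, which encodes a CXXC zinc finger protein, did not pass (log2 fold change 0.03). Gm30606, 89991 bases from the G protein gene Gnao1, had 1.503, 1.319 and 1.917 FPKM, against 3.91, 5.01 and 3.38 FPKM (log2 fold change -0.98, adjusted p = 0.00536), while Gnao1 was higher (log2 fold change 0.20, adjusted p = 0.0319). The most abundant gene that fell was AC078895.1 (chr16:17833121-17835008, plus strand), at 33.6, 40.1 and 43.6 FPKM, against 74.7, 74.1 and 73.8 FPKM. The control values were nearly equal, and the mean was 1.90-fold lower (log2 fold change -0.92 ± 0.09, SE, adjusted p = 0.00151). Gm13115 on chromosome 4 had 25.9, 19.6 and 24.3 FPKM, against 47.6, 44.6 and 46.4 FPKM, 1.98-fold lower (adjusted p = 0.0016).

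The remaining 20 falls had log2 fold changes from -0.95 (Gm45881) to -0.40 (Gm26809). They included Gm7160, Gm3924, 4632428C04Rik, 1810008I18Rik and D630024D03Rik, each of which was called under all 17 alternatives. In all, 17 of the 31 falls were at least 2-fold and 22 held under every alternative. Calls were lost in 1 alternative for Gm44899 and Gm33263, both with voom. Those of Gm45151, Gm12976, Gm30173, 4632404H12Rik, Gm17586, Gm26809 and 1700096K18Rik were lost in 4 to 9, among them fits with 1 library left out. Leaving out Wtap-βKO replicate 1 ended the calls of these genes except 4632404H12Rik, replicate 2 ended that of Gm17586, and replicate 3 ended those of Gm30173, 4632404H12Rik, Gm26809 and 1700096K18Rik. Leaving out Wtap flox/flox replicate 1 ended these calls except that of Gm30173. Replicate 2 ended those of Gm12976, Gm30173, 4632404H12Rik and 1700096K18Rik, and replicate 3 all but that of Gm12976. The genes whose values over the 6 libraries were most like those of AC078895.1 were Gm3924, Gm17767 and D630024D03Rik, with Pearson r of 0.994, 0.992 and 0.989 on the log2 scale. That likeness is over 6 libraries and carries the group difference, so it is a description only.

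The rises were fewer and less stable. Gm34225 (chr7:115031937-115066824, plus strand) had 16.0, 6.40 and 15.9 FPKM in the libraries labelled Wtap-βKO, against 1.42, 3.23 and 1.61 FPKM in Wtap flox/flox. Replicate 2 was the lowest of its group and replicate 2 of the controls the highest of its own, without overlap. The means were 12.8 ± 5.51 and 2.09 ± 0.996 FPKM (SD, n = 3 each), 6.11-fold higher (log2 fold change 2.10 ± 0.36, SE, limma adjusted p = 0.00949). Its nearest protein-coding gene, Insc, was 181554 bases away and too low to be tested. Gm44717 (chr8:11135641-11149246, minus strand) had 6.33, 5.70 and 3.91 FPKM, against 1.88, 0.986 and 1.17 FPKM, and was 3.96-fold higher (log2 fold change 1.43 ± 0.19, SE, adjusted p = 0.00406). The collagen gene Col4a1 lies 49177 bases away on the same strand and did not pass the test (log2 fold change 0.22, adjusted p = 0.178), except with limma voom (adjusted p = 0.0172) and without Wtap-βKO replicate 2 (adjusted p = 0.0192), within a range of 0.0172 to 0.388 over 17 alternatives.

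Dbpht2 and Gm15706 were the most abundant rises. Dbpht2 (chr12:74296668-74302008, plus strand), which RefSeq classes as protein-coding, had 45.9, 52.5 and 50.5 FPKM in the libraries labelled Wtap-βKO, against 29.5, 26.7 and 27.4 FPKM in Wtap flox/flox. Every library labelled Wtap-βKO stood above every control, at means of 49.6 ± 3.41 and 27.9 ± 1.49 FPKM (SD, n = 3 each), 1.78-fold higher (log2 fold change 0.81 ± 0.07, SE, limma adjusted p = 0.000809). The genes most like it over the 6 libraries were Gm39469 (r = 0.992), which RefSeq also classes as protein-coding, BC002059 (r = 0.955) and Gm44717 (r = 0.943). Gm39469 had 6.44, 7.51 and 7.17 FPKM, against 4.58, 4.53 and 4.27 FPKM (log2 fold change 0.56, adjusted p = 0.00384). Gm15706 had 28.5, 30.8 and 27.5 FPKM, against 15.4, 18.3 and 20.5 FPKM, without overlap (log2 fold change 0.66 ± 0.10, SE, adjusted p = 0.00685). The 5 rises called under all 17 alternatives were Dbpht2, Gm39469, Gm15706, Gm34225 and Gm44717.

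Gm27028 (chr1:23291537-23291935, plus strand) is a single block that contains the microRNA gene Mir30c-2, and 21.1% of its exon bases are shared with it. It had 4.65, 4.76 and 4.51 FPKM in the libraries labelled Wtap-βKO, against 2.86, 0.476 and 1.41 FPKM in Wtap flox/flox. These are 31 to 35 reads against 20, 3 and 10 reads, with no overlap and a wide control group. The mean was 2.93-fold higher (log2 fold change 1.24 ± 0.31, SE, limma adjusted p = 0.0339). It was 4.92-fold higher without Wtap flox/flox replicate 1 and 2.17-fold higher without Wtap flox/flox replicate 2. The call was lost without any 1 of the libraries labelled Wtap-βKO or without Wtap flox/flox replicate 3, and in 6 of 17 alternatives (highest adjusted p 0.0905). Poly-A libraries of this kind do not read mature microRNAs, whose sequences are shown because the gene's span holds them. They are given from RefSeq (GRCm38.p6), 5′ to 3′, with the seed, bases 2 to 8, in capitals.
mmu-miR-30c-5p: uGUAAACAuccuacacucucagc
mmu-miR-30c-2-3p: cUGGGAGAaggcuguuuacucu
The other rises were Gm26779, Gm30551, Gm19590, Gm28151, Gm48604 and BC002059, with log2 fold changes of 0.83, 0.60, 0.42, 0.41, 0.41 and 0.25. Gm26779 had 5.87, 6.59 and 5.47 FPKM in the libraries labelled Wtap-βKO, against 2.07, 4.48 and 2.55 FPKM in Wtap flox/flox. Gm30551 had 5.356, 3.899 and 4.4997 FPKM, against 2.67, 3.12 and 2.26 FPKM. The groups of these 6 genes did not overlap, yet each call was lost in 5 to 11 of 17 alternatives, among them the fits without Wtap flox/flox replicate 3 and without at least 2 of the libraries labelled Wtap-βKO. The count of rises among the 166 genes was 7 without Wtap-βKO replicate 1 or 2 and 6 without Wtap flox/flox replicate 3.

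Several of the most abundant genes did not pass the test. Gm10076, which RefSeq classes as a pseudogene, had 61.6, 24.6 and 183 FPKM in the libraries labelled Wtap-βKO and 31.7, 62.8 and 87.2 FPKM in Wtap flox/flox. The spread within each group was larger than the difference between them (log2 fold change 0.23 ± 0.70, SE, limma adjusted p = 0.85). Whether it shares reads with copies elsewhere in the genome was not tested. Gm27033, which lies 4872 bases from the islet factor gene Pdx1, had 39.7, 21.4 and 36.8 FPKM, against 41.8, 35.6 and 40.4 FPKM (log2 fold change -0.31 ± 0.22, SE, adjusted p = 0.364). Pdx1 itself fell to 52.7 FPKM on average, against 99.1 FPKM in Wtap flox/flox. Fam120aos and Tmem250-ps had log2 fold changes of -0.0026 ± 0.09 and -0.06 ± 0.08 (SE). Among genes that did not pass, Gm30122 had the largest change, chosen after its value was seen (log2 fold change 1.01 ± 0.29, SE, adjusted p = 0.05004).

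The falls and the rises were compared with their nearest protein-coding genes. Of the 31 falls, 29 had a tested neighbour, and 10 of these neighbours fell, 3 rose and 16 did not pass. Of the 12 rises, 11 had a tested neighbour, and 10 of these neighbours did not pass. Around the 123 genes that did not pass, 100 neighbours were tested and 18 fell and 14 rose. Over protein-coding genes at 2 FPKM or more, 14.7% fell and 10.6% rose, and no test of these shares was made. Besides Olfm4, which counts for both Gm6999 and Gm49542, the neighbour that fell most was Nabp1, a single-stranded DNA-binding protein gene 28661 bases from Gm17767, at 1.51 ± 0.242 FPKM in the libraries labelled Wtap-βKO and 4.86 ± 0.436 FPKM in Wtap flox/flox (SD, n = 3 each, log2 fold change -1.22, limma adjusted p = 0.000777). Gm16907 and 2010111I01Rik, which overlap on opposite strands, both fell, with log2 fold changes of -0.85 and -0.78, and their reads cannot be told apart where exons overlap. Against the direction of their noncoding neighbours, Hes1, a Notch target gene near 4632428C04Rik, and Rbms3 near Gm45881 rose, with log2 fold changes of 0.43 and 0.48.

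Of the 166 genes, 31 started within 1 kb of their nearest protein-coding gene, on the other strand and without overlapping it. Overlapping pairs with starts that close were not counted. They include 1110020A21Rik and 1700086O06Rik, whose neighbours Ppm1b and Dele1 fell (log2 fold changes -0.61 and -0.36). They also include 2700046G09Rik and Lppos, whose neighbours did not pass. Among the 31 genes, 7 fell and 1 rose, beside falls of 18.7% and rises of 7.23% over all 166 genes. Of the 30 neighbours tested 4 fell and 2 rose, beside 14.7% falls and 10.6% rises over protein-coding genes at 2 FPKM or more. No test of these counts was made. Gm33263 and Rhobtb1 start 302 bases apart and both fell, with log2 fold changes of -0.71 and -0.47. Gm17586 and Mafg, a small Maf transcription factor gene, start 168 bases apart and both fell, with -0.66 and -0.32, although the Gm17586 call was lost in 7 alternatives. No pair of this kind was called in opposite directions. Few pairs had a call for both genes, so this count cannot tell whether the directions go together.

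**Figure D5:**
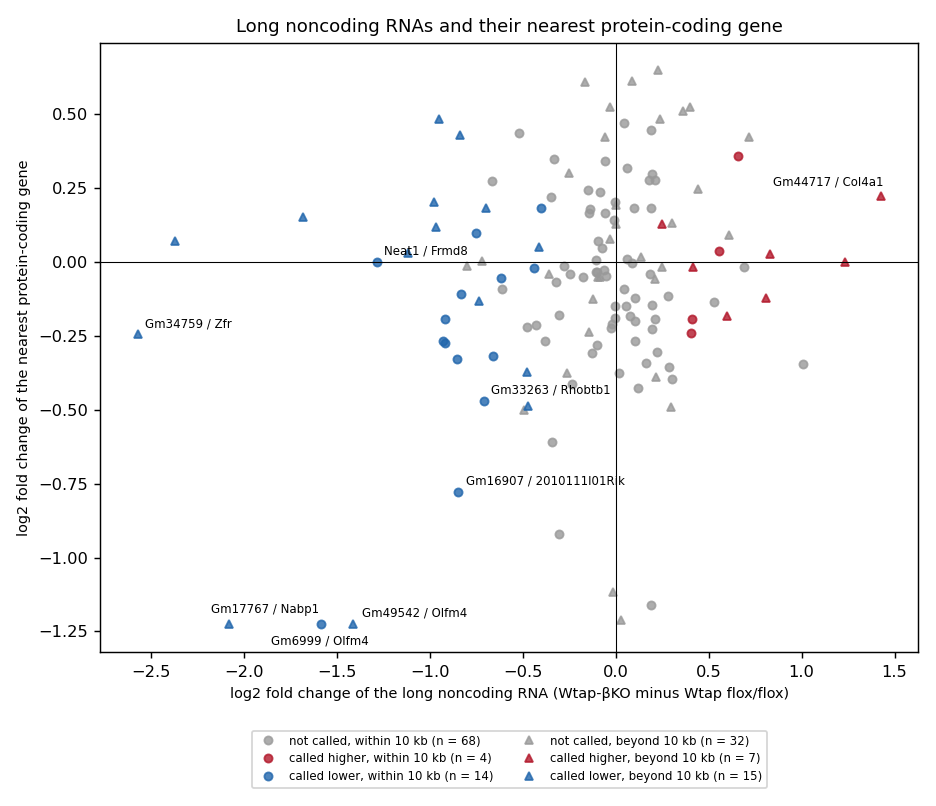
Log2 fold change of the noncoding gene (x axis) and of its nearest protein-coding gene (y axis), libraries labelled Wtap-βKO minus Wtap flox/flox, for the 140 pairs in which both were tested, as circles within 10 kb and triangles beyond. Gm17767, Gm6999 and Gm49542 sit at the lower left with Nabp1 and Olfm4, and Neat1 lies at -1.28 with Frmd8 near 0.

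Sequence and structure were compared as a description. The 31 falls had a median of 3.0 exon blocks, the 12 rises 2.5 and the genes that did not pass 2.0. In the longest GENCODE M21 transcript, the letters GGACT, a common core of m6A sites, were found in 22 of 31 falls, 7 of 12 rises and 108 of all 166 genes. Their median density was 1.40 per kb in the falls, 0.600 per kb in the rises and 0.793 per kb in the genes that did not pass, against 1.03 per kb in protein-coding genes at 2 FPKM or more. The spread was wide, with quartiles of 0 and 2.09 per kb in the falls, 0 and 0.966 in the rises and 0 and 1.48 in those not passing. Median transcript lengths also differed, at 1269, 925 and 1229 bases, against 3393 bases in the protein-coding genes. Neat1 held 23 copies (1.11 per kb) and Malat1 9 (1.29 per kb), while Norad and Gm6999 held none. Gm34759 held 2. A match of these letters is not a measured site of methylation.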

How the data were processed

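RNA was measured in 6 islet libraries, 3 labelled Wtap-βKO and 3 labelled Wtap flox/flox. The authors deposited 1 table of FPKM values with gene lengths, biotypes and coordinates, per the file headers. HISAT2 2.0.5 and CASAVA, as well as DESeq2 1.20.0 and featureCounts 1.5.0-p3, are named without roles by the submitters' processing notes, as are the mm10 and GRCm38 builds. Each FPKM value times gene length could be turned back into whole reads, to within 0.01 read in 100% of cases. The library size implied by this step was 1.07, 1.04 and 1.04 times the sum of recovered reads in the libraries labelled Wtap-βKO and 0.988, 0.966 and 0.952 times in Wtap flox/flox, so the FPKM values carry a scaling between libraries.

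The 15927 genes that averaged 0.5 FPKM or more were tested as log2(FPKM + 1), a scale that understates the change of low genes. Groups were compared with limma 3.58.1 under R 4.3.3 (lmFit, eBayes with a variance trend), two-sided, Benjamini-Hochberg adjusted, threshold 0.05. SE is limma's standard error, and folds are ratios of mean FPKM. The script was tested on simulated data. Reads are not independent molecules, so read counts cover counting error only. Members of the set and all gene lists were chosen with earlier results of these data known. Named are the 10 highest genes, the 10 largest falls and rises past the threshold, list members, genes at the limit of 2 FPKM, nearest protein-coding genes, and up to 4 proteins per list. Gene spans, biotypes and nearest genes come from the authors' table. Exons come from GENCODE M21, which held all 166 genes, 160 at the same coordinates. The 17 alternatives covered scaling, pseudocount, filter, variance model, recovered reads with limma voom, the replicate block and each library left out. A result on the neighbour of a gene that rose is not reported here.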

Additional observations from a re-analysis of the deposited data

How the results depend on the processing

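Of the 43 calls among the 166 noncoding genes, 27 (22 falls and 5 rises) held under all 17 alternatives and the others were lost in at least 1. Rises were 5 with no filter on low values and 6 to 10 with 1 library left out, against 12. Falls were 25 to 32 with 1 library left out, against 31. Among all genes, rises were 2334 and falls 1094 scaled to total recovered reads, and rises were 3020 with limma voom. With 1 library left out, all genes gave 774 to 1379 rises and 1020 to 1834 falls, and both counts moved by over 1.5 times without Wtap-βKO replicate 3 (832 and 1139) and without Wtap flox/flox replicate 1 (804 and 1034), 2 (774 and 1020) or 3 (861 and 1044). A minimum mean of 1 FPKM gave 293 genes with 48 falls and 18 rises, and a minimum of 5 FPKM gave 67 genes with 16 falls and 4 rises. Without genes that overlap another span, 103 genes gave 21 falls and 8 rises. The cause of these moves was not tested, except that the minimum changes how many genes enter. Same-numbered libraries of the 2 groups deviated together only slightly (r of 0.029, 0.038 and 0.018). Differently numbered libraries gave r from -0.037 to 0.013. This check cannot tell whether the libraries were handled in pairs. With the replicate number as a block, 28 falls and 12 rises remained by count among the 166 genes, with 36 of the 43 calls kept, and 1490 falls and 1148 rises among all genes. No called gene changed direction. Single values were followed over all alternatives for the 71 named genes only, which include neighbours and listed proteins outside the 166. Of these values, 1053 kept their direction and side of the threshold, 78 were no longer past it and 16 newly passed it. Another 59, on genes that did not pass, changed sign or moved. Depth limits the genes of few reads, such as Gm34654 and Gm27028.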
